A study of Mus musculus with 3 samples.

Results

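The genes described are Tfpi2, Mcpt8, Kap, Creb3l3, Ankrd1, Fthl17e, Slc18a2, Rpgrip1 and Fbxo2, which are 9 of the 18951 named genes on the arrays. They were picked from these same data, for the largest differences between 2 induced fibroblast cultures or for lying on opposite sides of primary thyroid cells. All 3 comparisons between the arrays entered that choice. The values of the 9 genes are therefore a description, and none of them carries a test.

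The study measured total RNA on 3 one-colour Agilent microarrays, 1 for each of 3 mouse cultures. Fibroblasts of E13.5 embryos of the outbred ICR strain were infected 2 times with retroviruses. The 7-factor culture was given Oct3/4, Sox2, Klf4 and c-Myc, which reprogram cells to pluripotency, with Pax8, Nkx2-1 and Foxe1, which specify the thyroid. The 8-factor culture received these and the homeobox factor Hhex. Both spent 1 week in fibroblast medium and 2 weeks in medium with thyroid stimulating hormone, potassium iodide and the N2 and B27 supplements, and were taken on day 21. The primary culture was made from the thyroid of adult ICR mice, and its follicular cells spent 1 week in the second of these media. The labels name no array of fibroblasts that received no virus, no clone and no number of animals. With 1 array per culture no difference has a replicate check, and whether groups overlap cannot be asked.

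Delivering transcription factors by retrovirus is a way to push fibroblasts toward another cell fate, and it leaves a mixed population in which cells differ in the factors they carry. The 9 genes belong to no shared pathway. They encode a secreted protease inhibitor, a protease of basophils, a kidney tubule protein, 2 proteins that regulate transcription, a ferritin-like protein, a transporter that loads monoamines into vesicles, a scaffold of the photoreceptor cilium and a ubiquitin ligase subunit. In RNA from a whole culture, fewer cells of a type and less RNA per cell cannot be told apart.

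A level below is the log2 processed signal of a probe minus that of the 75th percentile probe on its array, and a difference is the gap between levels of the same probe on 2 arrays. A difference of 2-fold or more counted as higher or lower. The 75th percentile lay at 2190 intensity units for 7 factors, 2535 for 8 factors and 504 for primary cells, and 77.8%, 77.8% and 63.5% of probes were well above background. The induced arrays shared 1 slide and scan, and the primary array lay on another, so slide and group cannot be told apart in comparisons with it. Spike-in control probes had 0.958 (7-factor) and 0.446 (8-factor) times the mean signal they had on the primary array. Whether the spike-in amounts or the RNA input differed between arrays is not recorded. Scaling to them would add 1.31 to every measured 8-factor minus 7-factor difference. Thyroid follicular markers summed to 519 times the 75th percentile signal in the primary culture, to 1.85 times in the 7-factor and to 2.33 times in the 8-factor culture. Most of both induced sums came from Foxe1, one of the factors delivered (levels of 0.72 and 1.12). Pax8 and Nkx2-1, also delivered, were low. Pax8 had levels of -6.85 with 7 factors, -7.28 with 8 (not well above background) and 0.55 in primary cells. Nkx2-1 had levels of -6.38, -5.74 and 2.62. Thyroglobulin (Tg) had levels of -2.93 with 7 factors, -3.85 with 8 and 8.89 in primary cells. Fibroblast markers summed to 112 times in the primary, 349 times in the 7-factor and 245 times in the 8-factor culture. Leukocyte markers summed to 59.9 times in the primary, 0.158 times in the 7-factor and 0.156 times in the 8-factor culture. Of the 2 probes of Hhex, the brighter one had levels of 0.14 with 7 factors and 0.87 with 8, and the dimmer one had levels of -5.67 and -0.76.

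All 9 genes were well above background on both induced arrays and 7 were on the primary array. With 8 factors 5 were higher (Tfpi2, Creb3l3, Mcpt8, Ankrd1 and Kap) and 4 were lower (Fthl17e, Slc18a2, Rpgrip1 and Fbxo2) than with 7. Over all genes 4.54% were higher and 4.04% were lower in that comparison. All 9 passed 8-fold, as did 0.258% of all genes. Since the genes were chosen for this, nothing is read from those shares. The split of all calls depends on scaling: 739 genes were higher and 657 lower, against 1200 and 339 without scaling and 11006 and 25 with scaling to the spike-ins. The differences of the 9 genes kept their sign under each scaling tried.

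**Figure D1:**
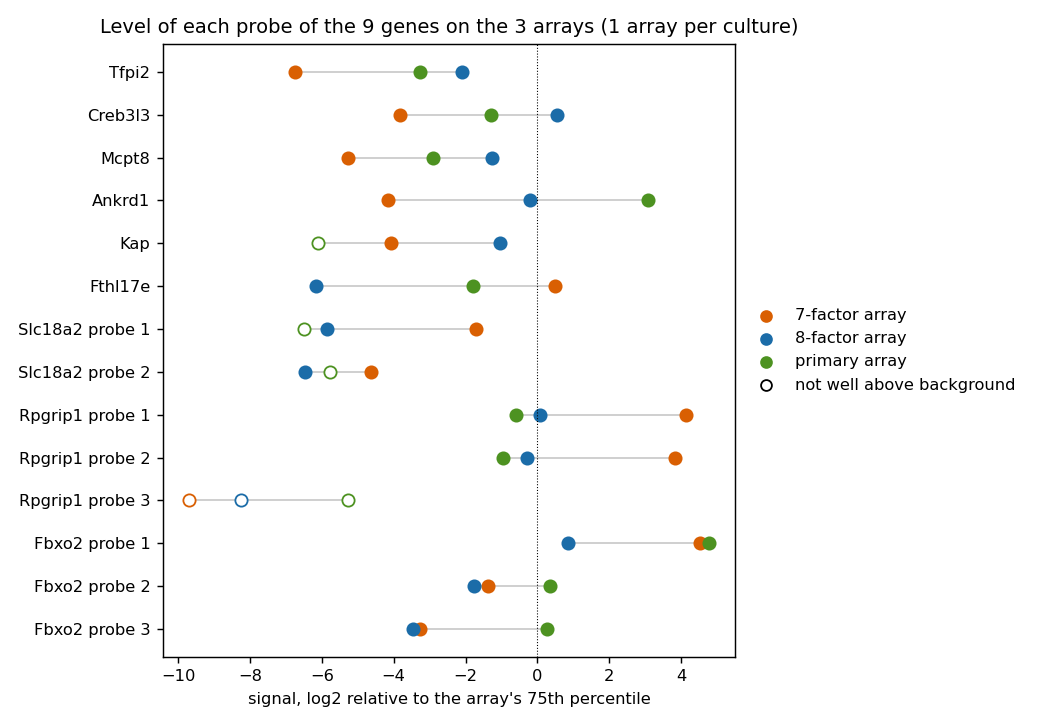
Each line of points is 1 probe of the 9 genes, and the horizontal axis gives its level (log2 signal, with the array's 75th percentile at 0); colours mark the 3 cultures and open circles mark spots not well above background. The 8-factor point lies to the right of the 7-factor point for Tfpi2, Creb3l3, Mcpt8, Ankrd1 and Kap and to the left for Fthl17e, for both probes of Slc18a2 and for the leading probes of Rpgrip1 and Fbxo2; levels should be read along a line and not between lines.

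The ranks of the 9 genes by size of difference, among 16260 genes compared, ran from 1 for Fthl17e to 42 for Kap. The others were Tfpi2 at 4, Creb3l3 at 6, Slc18a2 at 9, Rpgrip1 at 13, Mcpt8 at 14, Ankrd1 at 16 and Fbxo2 at 23. The choice therefore left out genes with larger differences than some that it took. Among those not taken, the chaperone gene Dnajb8 differed by 4.26, the arachidonic acid epoxygenase Cyp2c23 by 4.25, the cornified envelope gene Lce3f by 4.08 and the calprotectin subunit S100a9 by 3.93. The milk protein gene Lalba differed by -3.96, the transporter gene Mfsd4a by -3.37 and the synaptotagmin Syt10 by -3.19. Kap, the member nearest the edge, differed by 3.01.

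Against the primary culture the 7-factor culture had 4 of the 9 genes higher and 4 lower, where 19.1% of all genes were higher and 27.1% lower. The 8-factor culture had 4 higher and 3 lower, where 17.8% of all genes were higher and 27.5% lower. These splits over all genes also moved with scaling. With each array scaled to its median, 4218 genes were higher and 3694 lower for 7 factors and 3680 and 3894 for 8 factors, against 3078 and 4371, and 2874 and 4447, as given. Of the 9 genes 4, among 17 such genes in all, were at least 2-fold from primary cells on opposite sides: Tfpi2, Creb3l3 and Mcpt8 below with 7 factors and above with 8, and Fthl17e the other way. The share over all genes was 0.107%, and it too played a part in the choice. Both comparisons use the same primary array. Scaling to the spike-ins would add 2.18 and 3.49 to every measured difference of the 7-factor and 8-factor cultures from primary cells. Of the 4 genes, Tfpi2 then kept both sides past 2-fold, Creb3l3 and Mcpt8 differed by -0.35 and -0.17 with 7 factors, and Fthl17e by -0.85 with 8. With normexp background correction Creb3l3 and Fthl17e kept both sides.

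**Figure D2:**
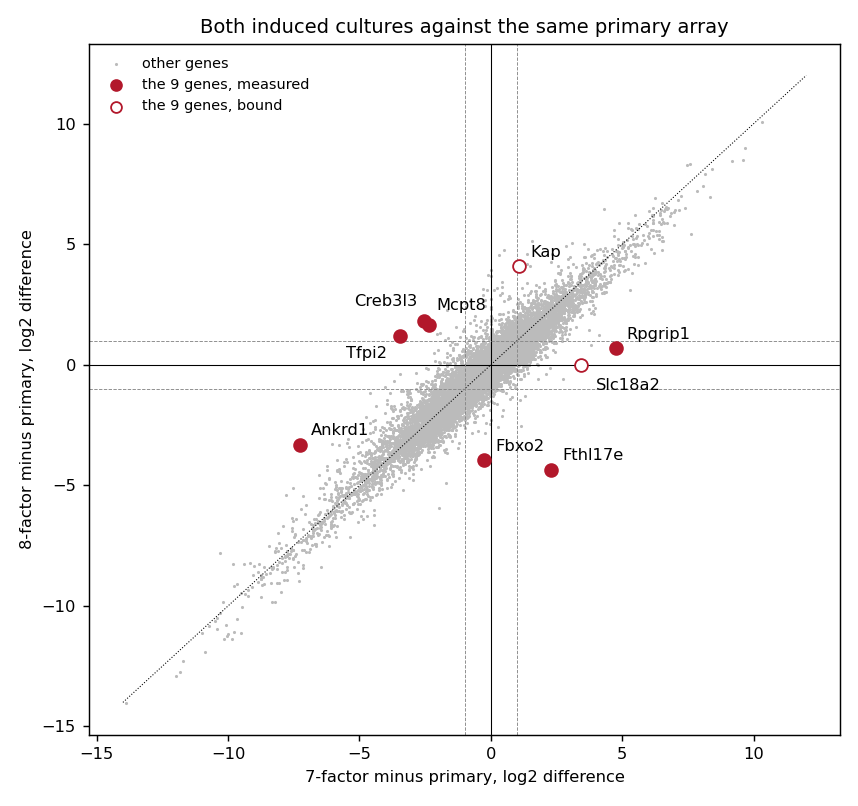
The horizontal axis gives the 7-factor minus primary and the vertical axis the 8-factor minus primary log2 difference for every gene compared in both; dashed lines mark 2-fold, the dotted line marks equal differences, and open circles are bounds, drawn at 0 for Slc18a2 where no bound could be given. Tfpi2 (-3.46 and 1.19), Creb3l3 (-2.53 and 1.83) and Mcpt8 (-2.35 and 1.66) lie in the upper left and Fthl17e (2.30 and -4.34) in the lower right.

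Tfpi2 encodes a secreted Kunitz-type inhibitor of serine proteases that acts in the extracellular matrix and is abundant in placenta. Its probe gave 20.4 intensity units with 7 factors, 596 with 8 factors and 51.9 in primary cells, or levels of -6.74, -2.09 and -3.28. Its signal was 25.2-fold higher with 8 than with 7 factors (4.65, scanner error 0.27). The size of this difference is uncertain, since the 7-factor level was near -7.78, the lowest level well above background on that array. With normexp background correction the difference was 2.46. The scanner error is the software's error for reading a spot and says nothing of how cultures vary. The 7-factor array was low and the 8-factor array high, with primary cells between them, 11.0-fold above the former and 2.28-fold below the latter. The higher value of the 8-factor culture over primary cells is the least firm part of this order: it was 1.19 on the log2 scale, 0.88 from the signal before spatial detrending and -0.24 with normexp background correction.

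Tfpi2 was set beside 20 compared genes of the tissue factor pathway, of other proteins with Kunitz domains and of the plasmin system. Of these 3 were higher with 8 factors and 0 lower, and their median difference was 0.12, where the median of all genes was -0.09. The higher ones included the clotting protease F7 (2.74) and the anchoring fibril collagen Col7a1 (2.06). The plasminogen activator inhibitor Serpinb2 differed by 0.85. F7 was also on opposite sides of primary cells, with differences of -1.62 for 7 factors and 1.12 for 8 factors. Against primary cells the list had 4 higher and 12 lower of 21 for 7 factors and 5 higher and 12 lower of 21 for 8 factors. Placental trophoblast markers gave little signal: 0 of 4 with a probe were well above background with 7 factors, 1 with 8 factors (Cdx2) and 0 in primary cells.

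Mcpt8 encodes a serine protease of the mast cell protease family that in mice marks basophils. Its probe gave 57.2 intensity units with 7 factors, 1061 with 8 and 66.9 in primary cells, or levels of -5.26, -1.26 and -2.91. With 8 factors it was 16.0-fold above the 7-factor culture (4.00, scanner error 0.22). The 8-factor level was also 3.15-fold above primary cells, and the 7-factor culture was 5.08-fold below them. Without scaling between arrays the 7-factor culture differed from primary cells by -0.23, so that side of the order rests on the scaling. With normexp the 8-factor difference from primary cells was 0.83 in place of 1.66.

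The 250 bases before the start of Mcpt8 are shown because, among the 9 genes, only Mcpt8 and Ankrd1 hold in this window the letters GGAATG, the core bound by TEAD factors. The sequence is from RefSeq, build GRCm38.p6, chr14:56085198-56085447 on the minus strand, with matches in capitals. GGAATG stands at position -192 and its reverse complement CATTCC at -203, counted from the start of the transcript; the matches do not overlap.
Mcpt8: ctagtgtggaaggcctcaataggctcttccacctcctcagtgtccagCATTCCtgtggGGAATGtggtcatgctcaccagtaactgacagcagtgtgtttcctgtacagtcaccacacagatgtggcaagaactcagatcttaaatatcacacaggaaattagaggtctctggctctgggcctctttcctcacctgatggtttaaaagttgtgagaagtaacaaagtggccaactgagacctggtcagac
Of all 32817 promoters in the RefSeq table, searched on both strands in windows of the same length, 12.6% hold GGAATG. The match is a description of letters and not a site of binding.

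Beside Mcpt8, 12 genes of a list of basophil and mast cell proteases and receptors could be compared between the induced cultures. The list also holds granzymes and the neutrophil protease Ctsg. Of these 2 were higher with 8 factors and 1 was lower, with a median of 0.09. Granzyme C (Gzmc) was higher by at least 6.06-fold and the transcription factor Gata2 by 2.15-fold. The histamine-forming enzyme Hdc differed by -1.40, and the mast cell chymase Cma1 by 0.98. Of 8 basophil and mast cell markers with a probe, 6 were well above background with 7 factors, 6 with 8 and 5 in primary cells. Their signals summed to 0.45, 0.51 and 0.43 times the 75th percentile of the array. Mast cell carboxypeptidase Cpa3 and tryptase Tpsb2 were not well above background on any array. The alpha chain of the IgE receptor, Fcer1a, had levels of -6.16, -6.52 and -4.32 and was not higher with 8 factors.

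Mcpt8 lies in a cluster of protease genes, and its neighbours did not all differ as it did. The nearest named genes, the chymase Mcpt4 and the neutrophil protease Ctsg, differed by -0.05 and 0.23 between the induced cultures. Of the 5 named genes on either side, 6 could be compared and 2 were higher with 8 factors. The larger of these was granzyme E (Gzme), a protease of killer cells, with levels of -6.91 with 7 factors, -3.60 with 8 and -4.87 in primary cells and a difference of 3.30. Gzme was itself on opposite sides of primary cells (-2.03 and 1.27).

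Kap encodes the kidney androgen-regulated protein, made in the proximal tubule under the control of androgen. Its probe gave 131 intensity units with 7 factors, 1219 with 8 factors and 7.35 in primary cells, where it was not well above background. The levels were -4.07 with 7 factors and -1.06 with 8, a difference of 3.01 or 8.05-fold with a scanner error of 0.21. Both induced cultures were above primary cells, by at least 2.12-fold with 7 factors and at least 17.1-fold with 8. Such a bound sets the induced level against the lowest level well above background on the primary array, which was -5.15. The 7-factor bound lay just past 2-fold (1.08 on the log2 scale), was 0.99 when scaled by probes well above background on all arrays, and was 0.22 with the floor at the 10th percentile of signals well above background. The 8-factor difference from primary cells was 1.60 with normexp in place of the bound of 4.09.

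The 250 bases before the start of Kap are shown for the TATA box letters TATAAA, which stand at -31. The sequence is from RefSeq, build GRCm38.p6, chr6:133853668-133853917 on the minus strand, with the match in capitals.
Kap: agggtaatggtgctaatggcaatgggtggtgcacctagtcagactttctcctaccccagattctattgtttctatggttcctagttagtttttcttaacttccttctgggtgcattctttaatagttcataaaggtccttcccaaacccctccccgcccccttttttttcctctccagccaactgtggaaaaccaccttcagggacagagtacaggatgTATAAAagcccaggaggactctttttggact
The same letters on either strand occur in 12.4% of all promoters of this length. They also occur before Fthl17e and, as the reverse complement TTTATA at -135, before Rpgrip1.

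Kap was set beside a kidney list. Of 17 other androgen-regulated and proximal tubule genes compared, 0 were higher with 8 factors and 2 lower, with a median of -0.37. The organic anion transporter Slc22a6 differed by -1.21 and the carboxylesterase Ces1f by -1.03. The renin gene Ren1 differed by -0.97 and the endocytic receptor Cubn by 0.92. Ornithine decarboxylase (Odc1), which androgen raises in kidney, had levels of 6.07 and 6.06. Of 6 proximal tubule markers 5 were well above background on each induced array and 4 in primary cells. Their summed signal was 2.87 with 7 factors, 3.04 with 8 and 18.6 in primary cells, in 75th percentiles of the array. Most of each sum came from Aqp1 (levels of 0.67, 0.92 and 3.73) and Lrp2 (0.08, -0.44 and 2.37). The markers Slc34a1 and Slc5a2 were not well above background in primary cells.

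Creb3l3 encodes a transcription factor held in the endoplasmic reticulum membrane, known in liver for genes of lipid handling, the acute phase and iron control. Its probe gave 154 intensity units with 7 factors, 3658 with 8 and 204 in primary cells, or levels of -3.83, 0.53 and -1.30. The 8-factor culture was 20.6-fold above the 7-factor culture (4.36, scanner error 0.21). It stood 3.56-fold above primary cells, which stood 5.77-fold above the 7-factor culture. Without scaling between arrays the 7-factor difference from primary cells was -0.41 in place of -2.53.

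The relatives of Creb3l3, the membrane-bound CREB3, ATF6 and SREBP factors with the proteases that release them, were compared in 10 cases. Of these 1 was higher with 8 factors and 0 lower, with a median of 0.05. The higher one was Creb3l1, a factor of secretory and bone-forming cells, with levels of -4.50 and -3.22 and a difference of 1.28. The sterol regulator Srebf2 differed by 0.88, Atf6b by 0.50 and Creb3l2 by -0.47.

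Known hepatic targets of Creb3l3 were taken as a separate list, and 10 could be compared. Of these 1 was higher with 8 factors and 1 lower, with a median of -0.13. The apolipoprotein Apoa4 was not well above background with 7 factors and was at least 3.14-fold higher with 8. The lipid droplet protein Cidec went the other way, by -1.70. The nuclear receptor Ppara differed by -0.88 and the carnitine transferase Cpt1a by -0.48. Against primary cells 6 of 9 targets were lower for 7 factors and 6 of 10 for 8 factors. Among hepatocyte markers the transthyretin gene Ttr was not well above background on any array. Albumin (Alb) had levels of -3.79, -4.35 and -6.21 and the fibrinogen chain Fgb had levels of 2.33, 3.12 and -5.34, neither well above background in primary cells. The order was the opposite for alpha-fetoprotein (Afp), with levels of -6.27, -6.67 and -0.62, and tyrosine aminotransferase (Tat), with -5.03, -4.98 and -2.51. The summed signal of these markers was 5.14 with 7 factors, 8.77 with 8 and 0.877 in primary cells, in 75th percentiles of the array. Nearly all of both induced sums came from Fgb, and most of the primary sum from Afp. Of the 5 hepatocyte markers compared, 0 were higher and 0 lower with 8 factors, with a median of 0.05. The part of this summed signal in the difference of Creb3l3 was not tested.

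Ankrd1 encodes a muscle ankyrin repeat protein that acts in the nucleus and at the titin spring of the sarcomere, and it is a widely used target gene of YAP and TEAD. Its probe gave 122 intensity units with 7 factors, 2178 with 8 and 4284 in primary cells, or levels of -4.16, -0.22 and 3.09. Ankrd1 was 15.4-fold higher with 8 than with 7 factors (3.95, scanner error 0.21). Both lay below primary cells, the 7-factor culture by 152-fold and the 8-factor culture by 9.90-fold. Ankrd1 was thus high in primary cells, lower with 8 factors and lowest with 7. The place of the 8-factor culture below primary cells turned with scaling to the spike-ins, which gave 0.19 in place of -3.31, and without scaling it was -0.98.

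The window before Ankrd1 holds GGAATG at -210 and at -123, in capitals, on the strand of the gene. The sequence is from RefSeq, build GRCm38.p6, chr19:36119845-36120094 on the minus strand.
Ankrd1: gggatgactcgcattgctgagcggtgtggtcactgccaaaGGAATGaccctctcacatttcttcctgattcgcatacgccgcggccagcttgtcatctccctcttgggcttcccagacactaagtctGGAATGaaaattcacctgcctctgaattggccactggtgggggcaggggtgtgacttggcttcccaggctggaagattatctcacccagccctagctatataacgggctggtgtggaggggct
This is the motif also found before Mcpt8, and the promoters of the other 7 genes do not hold it in this window.

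Ankrd1 was set beside other YAP and TEAD target genes and members of that pathway. Of 27 compared, 0 were higher with 8 factors and 2 lower, with a median of -0.29. The lower ones were the coactivator Wwtr1, known as TAZ (-1.36), and the kinase Lats2 (-1.03). The coactivator Yap1 differed by -0.96 and the kinase Nuak2 by -0.98. The standard targets Ccn1 and Ccn2, matricellular proteins, differed by 0.38 and -0.16. Against primary cells 9 of these genes were higher and 3 lower for 7 factors, and 6 were higher and 5 lower for 8 factors.

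In the list of muscle ankyrin repeat proteins and titin partners 14 genes were compared, of which 2 were higher with 8 factors and 0 lower, with a median of 0.24. Cardiac actin (Actc1) differed by 1.94 and desmin (Des) by 1.09. The cardiac factor Nkx2-5 differed by -0.85 and the natriuretic peptide Nppb by 0.68. The sister genes Ankrd2 and Ankrd23 differed by 0.34 and -0.26. Of 7 muscle markers 6 were well above background on each induced array and 5 in primary cells. Of the 6 compared, 2 were higher with 8 factors (Actc1, also in the list, and the myosin Myh6 by 1.27) and 0 lower, with a median of 0.39. The summed signal of the muscle markers was 19.2 with 7 factors, 18.1 with 8 and 2.07 in primary cells. Most of both induced sums came from the myosin Myh7 (levels of 4.19, 3.93 and -3.96). Most of the primary sum came from Actc1, with a level of 0.70 there. Creatine kinase Ckm was not well above background on any array.

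Fthl17e encodes a member of a mouse family of ferritin heavy chain-like proteins, a group of close copies on the X chromosome known from germ cells. Its probe gave 3082 intensity units with 7 factors, 35.7 with 8 and 144 in primary cells, or levels of 0.49, -6.15 and -1.81. Fthl17e was 99.9-fold lower with 8 than with 7 factors (-6.64, scanner error 0.23). The 7-factor array was high, primary cells lay 4.92-fold below it, and the 8-factor array lay 20.3-fold below primary cells.

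The window before Fthl17e holds TATAAA at -54, in capitals. The sequence is from RefSeq, build GRCm38.p6, chrX:9033236-9033485 on the plus strand.
Fthl17e: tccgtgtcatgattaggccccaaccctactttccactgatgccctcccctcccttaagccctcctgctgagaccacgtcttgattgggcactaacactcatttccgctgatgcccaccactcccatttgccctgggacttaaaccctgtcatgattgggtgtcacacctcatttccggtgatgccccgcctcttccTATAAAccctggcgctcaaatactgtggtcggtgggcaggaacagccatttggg
It is shown because the family's copies resemble each other here. Aligned over this window, Fthl17b and Fthl17c each matched Fthl17e in 91.4% of columns, the pseudogene Fthl17-ps1 in 80.2%, Fthl17d in 62.6%, Fthl17f in 61.7% and Fthl17a in 48.9%. The files hold no probe sequences, so which copies the probe detects is uncertain. No probe was named for Fthl17b, Fthl17c, Fthl17d or Fthl17f. The probe of Fthl17a was higher with 7 factors than with 8 by at least 2.10-fold. Its level was -6.84 with 7 factors, and its spot was not well above background with 8.

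Fthl17e was set beside genes of the ferritin family and of iron handling. Of 15 compared, 1 was higher with 8 factors and 1 (Fthl17a) lower, with a median of -0.15. The ferritin light chain Ftl1 was the higher one, with levels of 4.23 with 7 factors, 5.45 with 8 and 6.84 in primary cells. The heavy chain Fth1 differed by -0.56, the iron regulator Hfe by -0.84 and transferrin (Trf) by 0.84. Of the genes around Fthl17e 3 could be compared, and they ran from -0.07 to 0.92. Of 4 male germ cell markers with a probe 3 were well above background on each induced array and 2 in primary cells, and their summed signal was 0.127, 0.204 and 0.112. The germ cell helicase Ddx4 had levels of -3.23 with 7 factors, -2.48 with 8 and -7.21 in primary cells, the last not well above background. The order was the opposite for Tex101, with levels of -6.36, -6.01 and -4.39, and for Piwil2, with -7.48, -7.48 and -4.85, both highest in primary cells.

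Slc18a2 encodes the vesicular monoamine transporter that loads dopamine, serotonin, noradrenaline and histamine into vesicles. Its brighter probe gave 669 intensity units with 7 factors, 43.4 with 8 and 5.54 in primary cells, where it was not well above background. The levels on the induced arrays were -1.71 and -5.87, so the 8-factor culture was 17.8-fold lower (-4.16, scanner error 0.23). The dimmer probe gave 87.6, 28.9 and 9.26 intensity units and differed by -1.81, or 3.51-fold. Both probes were lower with 8 factors, by different amounts. The 7-factor culture was at least 10.8-fold above primary cells on the brighter probe and at least 1.42-fold on the dimmer one. With normexp the former was 0.79 on the log2 scale in place of 3.44. For the 8-factor culture no fold against primary cells is given, since its level lay below the lowest level well above background on the primary array.

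Around Slc18a2, 17 genes of monoamine synthesis, storage and reuptake were compared, of which 1 was higher with 8 factors and 4 lower, with a median of -0.32. The higher gene was the serotonin-forming enzyme Tph1, with levels of -5.83 with 7 factors, -3.49 with 8 and -4.66 in primary cells and a difference of 2.34. The noradrenaline transporter Slc6a2, not well above background with 8 factors, was at least 2.74-fold lower there. The histamine-forming enzyme Hdc differed by -1.40 and the cation transporter Slc22a2 by -1.36. The sister transporter Slc18a1 differed by 0.14 and the decarboxylase Ddc by 0.08. Tyrosine hydroxylase (Th), which defines catecholamine cells, was not well above background on any array. Of the 8 monoaminergic markers 7 were well above background on each induced array and 6 in primary cells, and they summed to 0.318 with 7 factors, 0.351 with 8 and 21.0 in primary cells, where chromogranin A (Chga) stood at a level of 4.30.

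Rpgrip1 encodes a scaffold of the photoreceptor connecting cilium that anchors the retinitis pigmentosa GTPase regulator, RPGR. Its brightest probe gave 38736 intensity units with 7 factors, 2667 with 8 and 331 in primary cells, or levels of 4.14, 0.07 and -0.61. The 8-factor culture was 16.8-fold below the 7-factor culture (-4.07, scanner error 0.20). A second probe gave 30797, 2054 and 259 intensity units and a difference of -4.12, or 17.4-fold. The 7-factor array was thus high on both probes, with 8 factors and primary cells closer together. On the brightest probe the 7-factor culture was 26.9-fold and the 8-factor culture 1.60-fold above primary cells. The closeness of the 8-factor culture to primary cells rests on the scaling. Their difference was 0.68 on the log2 scale, 3.01 without scaling and 4.17 with scaling to the spike-ins. A remaining probe was not well above background on any array, and which part of the transcript each probe reads is not given in the files.

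Rpgrip1 was set beside its partners. Of 14 genes of the RPGR complex and the photoreceptor cilium 0 were higher and 0 lower, with a median of -0.05. Rpgr itself differed by -0.52, the ciliary protein Sdccag8 by -0.41 and the prenyl-binding protein Pde6d by 0.35. The related scaffold Rpgrip1l differed by -0.04. Of the same list, the photoreceptor factors Crx and Nrl and the phosphodiesterase Pde6b were not well above background on any array. The rod proteins Gnat1 and Sag were well above background on both induced arrays at levels between -6.41 and -6.86. Next to Rpgrip1 lies Supt16, a subunit of the FACT chromatin complex, which differed by 1.48, in the other direction, and the RNA-binding protein Hnrnpc on the other side differed by 0.36.

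Fbxo2 encodes a brain-enriched F-box protein, the part of a ubiquitin ligase that recognises glycoproteins with high-mannose sugars. Its brightest probe gave 50525 intensity units with 7 factors, 4530 with 8 and 13766 in primary cells, or levels of 4.53, 0.84 and 4.77. The 8-factor culture was 12.9-fold below the 7-factor culture (-3.69, scanner error 0.20) and 15.3-fold below primary cells. The 7-factor culture and primary cells differed by -0.24, which is 1.18-fold and became 1.88 on the log2 scale without scaling between arrays. On this probe, as scaled, the 8-factor array alone was low, and that order rests on the scaling. Without scaling the 7-factor culture lay above primary cells and the 8-factor culture below them, by -1.60 in place of -3.93. With scaling to the spike-ins the differences from primary cells were 1.94 for the 7-factor and -0.44 for the 8-factor culture.

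The other probes of Fbxo2 gave another order. The second gave 839 intensity units with 7 factors, 740 with 8 and 636 in primary cells, and its difference between the induced cultures was -0.39. The third gave 225, 230 and 600, with a difference of -0.18. On both, as scaled, the induced cultures lay close together and below primary cells, by -1.72 and -2.11 on the second probe and by -3.53 and -3.71 on the third. The place of the second probe below primary cells rests on the scaling, since its unscaled signals were higher in both induced cultures. The large difference of Fbxo2 therefore rests on 1 of its 3 probes.

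Among 14 other glycoprotein-recognising F-box proteins and subunits of the ligase, 1 was higher with 8 factors and 0 lower, with a median of -0.10. The cullin Cul1 differed by 1.11, the degradation adaptor Sel1l by -0.57 and the F-box proteins Fbxo6 and Fbxo17 by -0.50 and 0.46. The adaptor Skp1, which joins F-box proteins to the cullin, had levels of 3.60, 3.48 and 3.79. The adjacent F-box gene Fbxo44 differed by -0.21 and the gene on the other side, Disp3, by -0.29.

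**Figure D3:**
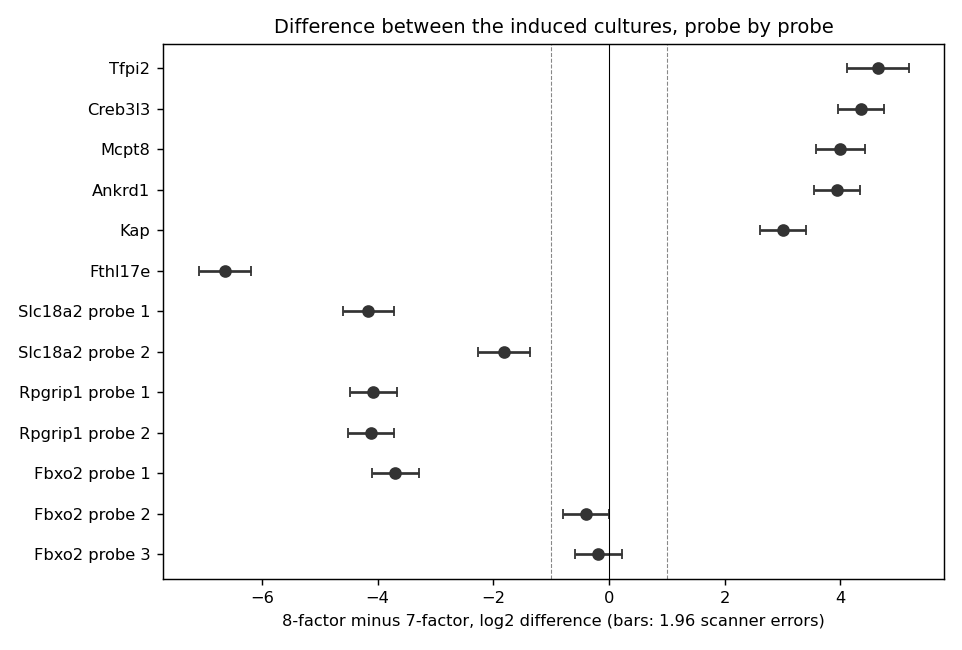
The horizontal axis gives the 8-factor minus 7-factor log2 difference of each probe well above background on both induced arrays, with bars of 1.96 scanner errors and dashed lines at 2-fold. The leading probes of Rpgrip1 lie together at -4.07 and -4.12, those of Slc18a2 lie apart at -4.16 and -1.81, and those of Fbxo2 lie at -3.69, -0.39 and -0.18; the other 6 genes have 1 probe each.

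Of the 9 genes 6 have a single probe, so their differences have no second reading within an array. Over all genes that differed by at least 2-fold on the brightest probe, 74.6% of the 334 second probes that were measured had the same sign and 26.9% passed 2-fold. Among those that differed by at least 8-fold, 7 of 8 second probes had the same sign and 3 passed 2-fold. These 8 include the second probes of Slc18a2 (-1.81), Rpgrip1 (-4.12) and Fbxo2 (-0.39), so they are no separate check on the 9 genes. The spots of the 14 probes of the 9 genes carried 0 outlier marks. Of 65 spots next to them that were measured, 4 differed by at least 2-fold, and the largest size was 1.16.

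**Figure D4:**
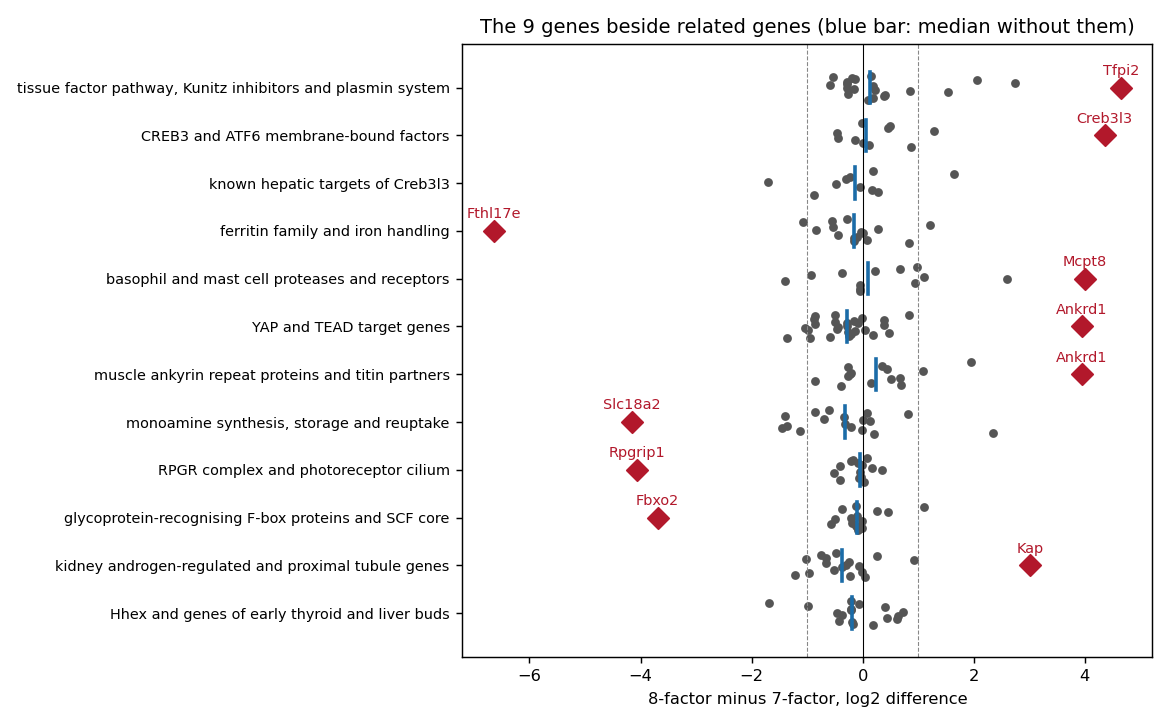
The horizontal axis gives the 8-factor minus 7-factor log2 difference; red diamonds are the 9 genes, grey points the related genes of each list and blue bars the median of those related genes, with dashed lines at 2-fold. The list medians lie between -0.37 and 0.24, while the 9 genes lie between -6.64 and 4.65.

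The list of Hhex and genes of the early thyroid and liver buds was added because Hhex sets the 8-factor culture apart. It also holds Pax8, Nkx2-1 and Foxe1, which both induced cultures received. Of its 17 genes compared, 0 were higher and 1 was lower with 8 factors, with a median of -0.19. The lower gene was the foregut factor Foxa1 (-1.68), and the related factor Foxa3 was at least 1.97-fold lower. The brighter Hhex probe differed by 0.73 and the dimmer one by 4.91, or 30.0-fold.

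The neighbours of the 9 genes on their chromosomes were read from the order of genes in the RefSeq table. Of the 5 named protein-coding genes on either side, 0 of 8 compared around Tfpi2 differed by 2-fold or more, 1 of 10 around Creb3l3 (Dapk3, 1.80), 1 of 10 around Ankrd1 (Ppp1r3c, -1.36) and 1 of 7 around Kap (Bcl2l14, 2.12). For the lower genes these were 1 of 8 around Slc18a2 (Hspa12a, -1.66), 1 of 8 around Rpgrip1 (Supt16, 1.48) and 1 of 10 around Fbxo2 (Angptl7, 1.67). The nearest genes on both sides, where measured, were within 2-fold except Supt16: Calcr beside Tfpi2 differed by -0.49, Thop1 and Map2k2 beside Creb3l3 by -0.14 and 0.11, Rpp30 and Pcgf5 beside Ankrd1 by 0.38 and 0.15, Smim10l1 and Etv6 beside Kap by 0.05 and 0.26, and Pdzd8 beside Slc18a2 by -0.35.

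**Figure D5:**
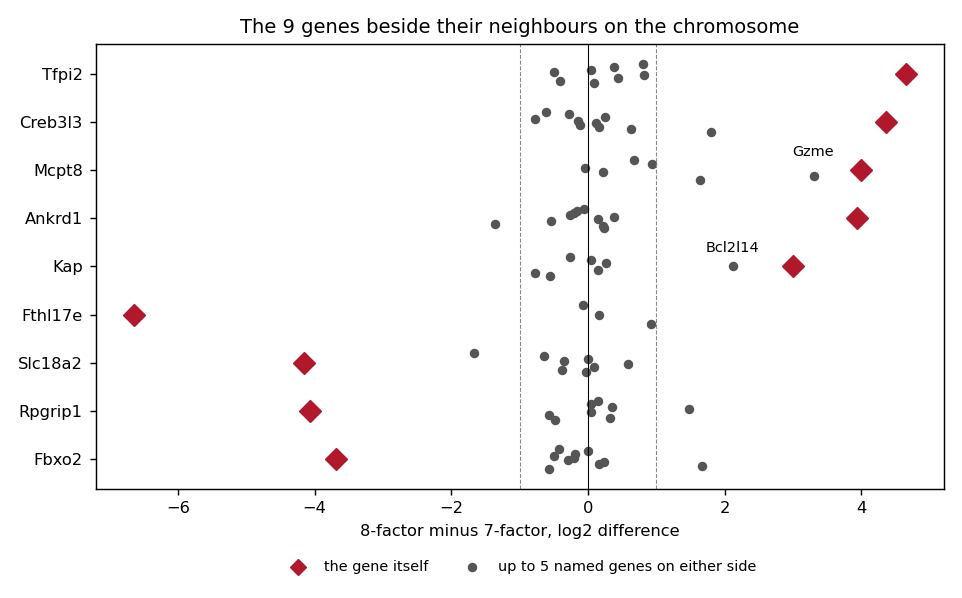
The horizontal axis gives the 8-factor minus 7-factor log2 difference; red diamonds are the 9 genes and grey points up to 5 named genes on either side of each, with dashed lines at 2-fold. Gzme beside Mcpt8 (3.30) and Bcl2l14 beside Kap (2.12) are the neighbours with the largest differences, and all genes measured around Tfpi2 and Fthl17e lie within 2-fold.

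The genes whose pattern over the 3 arrays was most like that of each member were found by Euclidean distance between centred log2 levels, over genes with the same well-above-background marks. Creb3l3 and Mcpt8 were each other's nearest gene among 13487, at a distance of 0.25. Creb3l3 (0.68) and Mcpt8 (0.79) were also the nearest genes to Tfpi2. Creb3l3, Mcpt8 and Tfpi2 were picked from the values on these same arrays, where they share opposite shifts against primary cells. Their nearness to each other is therefore partly built into the choice, and no relationship is read from it. The next gene for Creb3l3 was S100a9 (0.61) and for Mcpt8 it was Gzme (0.50). Nearest to Ankrd1 were the invariant chain Cd74 (0.97) and the oocyte gene Ooep (1.36).

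Rpgrip1 was nearest to the histone gene H2ac4 (0.84) and the noncoding RNA Tsix (0.85), and Fbxo2 to the potassium channel Kcnh2 (0.89) and the collagen chain Col4a5 (0.96). Slc18a2 was nearest to Spink4 (1.31) and Hapln1 (1.67) among 1390 genes with its marks. Fthl17e had no gene closer than 2.26, which was Fbxo2, and the next was Col4a5 (2.67). Kap was nearest to the growth cone protein Gap43 at 0.093 and the neurofilament Nefl at 0.24, also among 1390 genes. Kap, Slc18a2 and their matches were not well above background in primary cells. Those uncertain levels entered the distances, which are not on a par with those among 13487 genes. With 3 arrays many genes can share a pattern.

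The upstream windows of the 9 genes were also searched for the cyclic AMP response element TGACGTCA, the E-box CACGTG bound by Myc, the octamer ATGCAAAT bound by Oct factors, CAAGTG, a core bound by Nkx2-1, and the homeodomain core TAATTA, on both strands. These letters occur in 1.55%, 6.02%, 1.60%, 11.6% and 4.85% of all promoters and in none of the windows of the 9 genes. The windows of Tfpi2 (3 annotated starts), Creb3l3 (2 starts), Slc18a2 and Fbxo2 hold no match to any of the motifs searched, which says only that these letters are not in these windows. Base composition varied: the window of Fbxo2 was 71.6% G and C with 19 CpG, that of Mcpt8 was 48.4% with 0 CpG, and the medians over all promoters were 52.4% and 6 CpG.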

How the data were processed

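Cy3-labelled RNA of each culture was hybridised to 1 array, per the labels' protocols. The authors deposited each spot's intensity. Background and spatial trends had been removed in Feature Extraction, version 11.5.1.1 per the file headers and 10.5 per the submitters' processing notes. Although the submitters' design text speaks of a 75th percentile shift, the values in the deposited table are the linear processed signals, to within 5e-05.

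Control spots and outlier spots were left out, repeated spots were averaged as log2 values, and each array was shifted to a 75th percentile of 0. Of 41171 probes 27815 were named by matching RefSeq accessions to GRCm38.p6; the array grid refers to mm9, so that table served for names and gene order only. The remaining probes were not used here. Promoter sequences, searched for letters as written, are RefSeq's. A gene is its brightest probe over the 3 arrays. It was compared if either array showed it well above background. A dim value was raised to the array's lowest signal well above background unless its own signal was higher, and the resulting bound is written "at least".

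With 1 array per group there is no test, and the number of arrays limits the precision. The scanner error of a difference comes from the software's error model. The SD of repeated spots had medians of 0.07 (7-factor), 0.10 (8-factor) and 0.06 (primary).

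The 9 genes and the 12 lists of related genes (212 of 224 genes with a probe) were chosen with earlier results of these data known. The text names every probe of the 9 genes, up to 4 genes of each list by size of difference together with well-known members given for reference, the adjacent genes, 2 genes of most similar pattern for each, and the largest differences among other named genes; reference members, and flanking genes beyond the adjacent ones, were chosen after their values were seen. A few items are not reported here. Alternatives changed the scaling, background correction, probe choice, floor, outlier spots and fold; scaling to 8 of 10 spike-in probes was added after seeing the data. Normexp used the median spot signal, since the files give no mean. Python 3.11.15, numpy 2.4.6, pandas 2.3.3, R 4.3.3 and limma 3.58.1 were used.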

Additional observations from a re-analysis of the deposited data

Results flagged for a closer look

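Tfpi2, Creb3l3, Mcpt8 and Fthl17e stood out because the induced cultures lay on opposite sides of the same primary array. The 8-factor minus 7-factor difference was 4.65 for Tfpi2, 4.36 for Creb3l3, 4.00 for Mcpt8 and -6.64 for Fthl17e. Each group is 1 array, so the difference between the groups was not tested, and the genes were chosen for it. Of the 17 genes with such opposite shifts, 9 others carry a gene name that is neither predicted nor a clone: S100a9, Terc, Dusp3, Gzme, Tph1, F7, Olfr127, Ccl19 and Chrm4.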

How the results depend on the processing

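All 102 values of the 8-factor minus 7-factor difference of the 9 genes, under those of the 13 alternatives that give one, kept their sign. Of these 82 moved by less than 1.96 scanner errors and 20 by more. Some could not move, so these counts are no measure of firmness. Changes of floor leave all 9 differences as they were, since both induced levels were well above background. The mean over probes is the same value for the 6 genes with 1 probe. Keeping outlier spots added none for the 9 genes. With normexp the differences were 2.46 for Tfpi2, 3.64 for Creb3l3, -5.15 for Fthl17e, 2.90 for Mcpt8, 3.38 for Ankrd1, -2.87 for Slc18a2 and 2.57 for Kap. Genes higher and lower in this comparison then numbered 424 and 420, and 15 passed 8-fold. The 8-factor minus primary difference of Tfpi2 reversed to -0.24, and the cause was not tested. The mean over probes gave -2.98 for Slc18a2 and -1.42 for Fbxo2, and the second-brightest probe -1.81 and -0.39.

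Scaling to the spike-ins, added after seeing the data, shifts every measured gene of a comparison alike. It gave 5.97 for Tfpi2, 5.68 for Creb3l3, -5.33 for Fthl17e, 5.32 for Mcpt8, 5.26 for Ankrd1, -2.84 for Slc18a2, -2.76 for Rpgrip1, -2.38 for Fbxo2 and 4.32 for Kap. Counts of genes higher and lower became 11006 and 25 for 8 against 7 factors, 11367 and 1089 for 7 factors against primary and 14306 and 485 for 8 factors against primary, with 204 past 8-fold and 54 on opposite sides. Ankrd1 in 8 factors against primary reversed to 0.19. Among list medians of 2-fold or more, those that reversed for 7 factors against primary were the tissue factor (0.48), ferritin (0.76), basophil (0.34), muscle ankyrin (0.044) and Hhex (0.0034) lists. For 8 factors they were the tissue factor (2.02), hepatic target (1.33), ferritin (1.96), muscle ankyrin (1.39) and Hhex (1.26) lists. Medians under 2-fold also turned positive, for CREB3 (1.25) and F-box (2.00) genes with 7 factors and for CREB3 (3.15), basophil (1.70), monoamine (2.05) and F-box (3.21) genes with 8.

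Without scaling, the median of all measured genes was 2.04 for 7 factors and 2.20 for 8 factors against primary, in place of -0.08 and -0.14, and counts became 1200 and 339, 11208 and 1140, and 11715 and 978 in the same order. List medians of 2-fold or more reversed for tissue factor (0.42), ferritin (0.70) and basophil (0.28) genes with 7 factors, and for tissue factor (0.86), hepatic target (0.16), ferritin (0.79), muscle ankyrin (0.22) and Hhex (0.091) genes with 8. Smaller medians turned positive for CREB3 (1.19) and F-box (1.94) genes with 7 factors and for CREB3 (1.99), basophil (0.54), monoamine (0.89) and F-box (2.04) genes with 8. The second-brightest probe, which leaves fewer genes, gave 457 and 257, 845 and 1626, and 858 and 1484, with 4 past 8-fold and 4 on opposite sides, and a ferritin median of 0.84 for 8 factors against primary. A 4-fold rule gave 124 and 39, 1049 and 2420, and 972 and 2520, with 1 gene, Fthl17e, on opposite sides.

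No paired analysis was possible because each group has 1 array. The primary array was dimmer, so low genes more often have only a bound there. Scanner errors do not cover variation between cultures.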

Other observations

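Other named genes differed between the induced cultures by amounts like those of the 9 genes. The synaptotagmin Syt6 had levels of -3.76 with 7 factors, 0.14 with 8 and -3.79 in primary cells, and the secreted prokineticin Prok2 had levels of -5.29, -1.46 and -5.15. The potassium channel Kcnj1 was not well above background with 7 factors and was at least 28.2-fold higher with 8. Among genes lower with 8 factors, the noncoding RNA Tsix had levels of -0.23, -3.20 and -4.03 and the basement membrane collagen Col4a5 levels of -0.63, -3.50 and -0.91. These are single readings, and their cause was not tested.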
